A study of Arabidopsis thaliana with 10 samples.

Results

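Plants recognise conserved fragments of microbes, and peptides that damaged cells release, through receptor kinases at the cell surface. Ligand binding brings in a co-receptor kinase, cytoplasmic kinases pass the signal on, and a burst of reactive oxygen, a cascade of mitogen-activated protein (MAP) kinases and the transcription of early defence genes follow. This is pattern-triggered immunity, and its co-receptor BAK1 is also the co-receptor of brassinosteroid, the growth hormone whose response IBH1 and IBL1 restrain. Here 10 genes of this pathway were followed, chosen by gene identifier from the 34047 genes in the deposited tables. They comprise 4 receptors (FLS2, EFR, CERK1 and PEPR1), the cytoplasmic kinase BIK1, the oxidase RBOHD, the MAP kinases MPK3 and MPK11, and the output genes FRK1 and NHL10.

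The data are RNA sequencing of entire Arabidopsis thaliana seedlings, 10 days old and given no treatment, in 5 genotypes of the Col-0 ecotype with 2 libraries each by the sample titles, although a protocol note gives a larger number of replicates. The groups were homozygous 35Spro:IBH1-GFP plants (IBH1 overexpressor), homozygous ibh1 insertion plants (SALK 049177), homozygous 35Spro:IBL1-GFP plants (IBL1 overexpressor), homozygous ibl1 insertion plants (SALK 119457) and wild-type Col. The 35S promoter drives both fusions in most tissues, far from the native pattern, and the number of independent transgenic lines is not given. No elicitor was applied, so the values are resting levels in uninfected seedlings.

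The authors deposited 1 FPKM value per genotype (fragments scaled for transcript length and sequencing depth), not 1 per library, and every level and authors' test below is from the authors' deposited tables. Levels of different genes can therefore be set side by side. No spread between the 2 libraries can be shown and the depth is unknown. The labels call the libraries biological replicates without saying that they came from separate cultures, so the p-values may measure spread that is partly technical. Positive log2 changes mean a higher level in the line than in Col, and each ± gives a standard error, the change divided by the deposited statistic. Genes that the authors' test accepted count as called below a q-value of 0.05. The lines matched their labels: IBH1 was at 5148 FPKM in its overexpressor and 6.91 FPKM in its mutant, against 22.2 FPKM in Col, and IBL1 was at 201 FPKM in its overexpressor and 1.87 FPKM in its mutant, against 7.70 FPKM in Col. Both mutants thus kept some transcript. IBL1 was also low in the IBH1 overexpressor, at 1.84 FPKM. All 4 photosynthetic and all 5 root markers were above 1 FPKM in every genotype, 1 to 3 of 4 flower and seed markers were at 0, and none of 3 guard cell markers was called by Cuffdiff. The summed root markers ranged from 75.2 FPKM in the IBH1 overexpressor to 118 FPKM in the IBL1 overexpressor, with 83.3 FPKM in Col. The root marker CASP1 was the largest part of these sums (32.1, 67.7 and 40.3 FPKM in the same order). The light-harvesting gene LHCB2.1 was called lower in all 4 lines (log2 -0.86 and -0.45 for the IBH1 overexpressor and mutant, -1.53 and -0.88 for the IBL1 pair). RCA, which activates Rubisco, fell in the IBL1 overexpressor (-0.30 ± 0.01), as did the carbonic anhydrase CA1 (-0.13 ± 0.02), which rose in the other 3 lines. RCA was called higher in the ibh1 mutant (0.08 ± 0.02, authors' q 0.00253), and the photosynthetic marker RBCS1A was called in no line. The flower gene AP3 was called higher in the IBH1 overexpressor, at 2.53 FPKM with Col listed at 0 (authors' q 0.0193). In these bulk samples fewer cells of a type and less RNA per cell cannot be told apart.

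Immune transcription factors of the WRKY family bind the W-box, whose core is TTGAC, and the 300 bases before each gene start were searched for it because 5 members moved in at least 1 line. The core, searched on both strands, was present before 9 of the 10 genes, against 50.4% of 27443 protein-coding genes with a window of the same length. The fuller words TTGACC or TTGACT, which contain the core, were present before 8 of the 10 genes, against 32.3% of all. The G-box CACGTG, a word that DNA-binding bHLH proteins recognise, was present before 1 of the 10 genes (PEPR1), against 7.09% of all. The broader E-box CANNTG, which includes the G-box, was present before 9 of the 10 genes, against 61.9% of all. Among the 57 further pathway genes described below, the core was present before 41 and the fuller words before 31. The G-box was present before 4 of these 57 and the E-box before 37. The windows of EFR, CERK1, PEPR1 and MPK3 overlap other annotated genes. IBH1 lacks the basic region with which bHLH proteins contact DNA.

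Of the 5 members that were called in some line, 4 are printed below 5′ to 3′ on the gene's strand (RefSeq, TAIR10.1), with TTGAC or its complement in capitals, to show the spread from 3 cores to none. FRK1 (chr2:8329945-8330244, minus strand) had 3 cores, RBOHD (chr5:19396741-19397040, plus strand) had 2, MPK11 (chr1:201803-202102, plus strand) had 1, and MPK3 (chr3:16756271-16756570, plus strand) had 0. A word match is a description of the letters and not of binding.
FRK1: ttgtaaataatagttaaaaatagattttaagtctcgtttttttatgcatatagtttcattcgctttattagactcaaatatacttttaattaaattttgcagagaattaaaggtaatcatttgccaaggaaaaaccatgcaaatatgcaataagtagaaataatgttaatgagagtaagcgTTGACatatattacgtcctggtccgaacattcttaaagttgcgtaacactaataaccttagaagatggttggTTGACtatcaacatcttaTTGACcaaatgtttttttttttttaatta
RBOHD: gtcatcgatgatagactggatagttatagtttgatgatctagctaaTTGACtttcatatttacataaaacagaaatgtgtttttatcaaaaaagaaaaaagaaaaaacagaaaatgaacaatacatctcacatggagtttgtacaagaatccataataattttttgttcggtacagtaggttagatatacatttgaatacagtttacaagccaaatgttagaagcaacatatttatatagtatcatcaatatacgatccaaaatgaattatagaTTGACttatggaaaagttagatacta
MPK11: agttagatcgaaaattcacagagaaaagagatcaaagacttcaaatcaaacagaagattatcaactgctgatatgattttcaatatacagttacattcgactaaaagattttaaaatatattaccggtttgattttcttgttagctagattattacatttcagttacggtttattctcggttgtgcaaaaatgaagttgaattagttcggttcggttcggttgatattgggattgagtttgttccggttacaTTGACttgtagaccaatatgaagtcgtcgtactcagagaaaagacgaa
MPK3: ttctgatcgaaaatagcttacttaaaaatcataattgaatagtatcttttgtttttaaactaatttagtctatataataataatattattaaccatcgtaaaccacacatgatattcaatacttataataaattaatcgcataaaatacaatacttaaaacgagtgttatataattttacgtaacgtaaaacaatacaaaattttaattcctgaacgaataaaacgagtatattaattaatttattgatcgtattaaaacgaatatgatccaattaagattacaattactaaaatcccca
The fifth, EFR, had 1 core. Members that were called in no line carried the word too: PEPR1 had 3 cores, FLS2 had 2, and CERK1, BIK1 and NHL10 had 1 each. Only 5.07% of all windows held 3 or more cores, and the 2 members with that many were FRK1 and PEPR1.

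**Figure D1:**
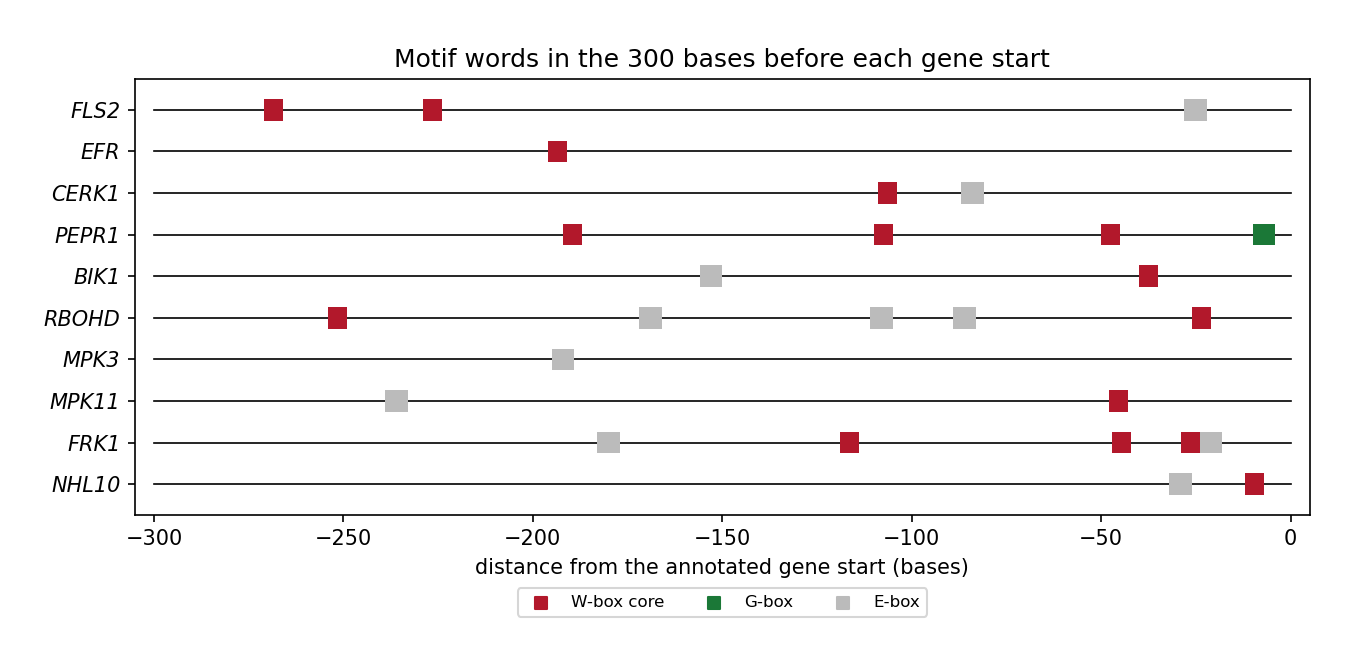
Positions of motif words in the 300 bases before the annotated start of each of the 10 genes (x axis, bases from the start; 1 line per gene). Red marks the W-box core, green the G-box and grey the E-box; MPK3 is the gene without a W-box core and PEPR1 the one with a G-box.

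Of the 4 receptors, EFR was the one called, in the IBL1 overexpressor. FLS2 (AT5G46330, chromosome 5, 18791736 to 18795546, TAIR10), the receptor of bacterial flagellin, was at 7.99 FPKM in the IBH1 overexpressor, 10.9 FPKM in the ibh1 mutant, 11.2 FPKM in the IBL1 overexpressor and 7.08 FPKM in the ibl1 mutant, against 9.22 FPKM in Col. It was called in no line: the log2 change was -0.21 ± 0.18 and 0.25 ± 0.17 for the IBH1 lines, overexpressor first (authors' q 0.565 and 0.499), and 0.28 ± 0.16 and -0.38 ± 0.18 for the IBL1 lines (authors' q 0.242 and 0.25). The levels thus lay on both sides of Col, and the 95% interval in the ibl1 mutant, -0.74 to -0.03, was the one that lay wholly below 0, before adjustment for multiple testing.

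EFR (AT5G20480, chromosome 5, 6922480 to 6925887), the receptor of bacterial elongation factor Tu, was the least abundant receptor. It was at 2.86 FPKM in the IBH1 overexpressor, 2.06 FPKM in the ibh1 mutant, 4.00 FPKM in the IBL1 overexpressor and 1.57 FPKM in the ibl1 mutant, against 1.67 FPKM in Col. It rose 2.40-fold in the IBL1 overexpressor (log2 1.26 ± 0.34, authors' q 0.00267). The IBH1 overexpressor had 0.78 ± 0.37 (authors' q 0.203), and the mutants had 0.31 ± 0.38 and -0.09 ± 0.41.

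CERK1 (AT3G21630, chromosome 3, 7615385 to 7618581), the LysM kinase of chitin signalling, was at 17.5 FPKM in the IBH1 overexpressor, 14.1 FPKM in the ibh1 mutant, 21.7 FPKM in the IBL1 overexpressor and 14.6 FPKM in the ibl1 mutant, against 17.8 FPKM in Col. Both mutants lay below Col and the IBL1 overexpressor above it, none of them called (authors' q between 0.233 and 0.95 over the 4 lines). PEPR1 (AT1G73080, chromosome 1, 27484513 to 27488201), a receptor of the plant's own danger peptides, varied least of the 10 genes. Its highest level, 12.6 FPKM in the IBL1 overexpressor, was 1.21 times its lowest, 10.4 FPKM in Col, and its authors' q was between 0.248 and 0.901. For these uncalled receptors the 95% intervals bound the change: no interval of PEPR1 reached beyond 0.57 on the log2 scale, nor one of CERK1 beyond 0.59 upward or -0.69 downward.

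**Figure D2:**
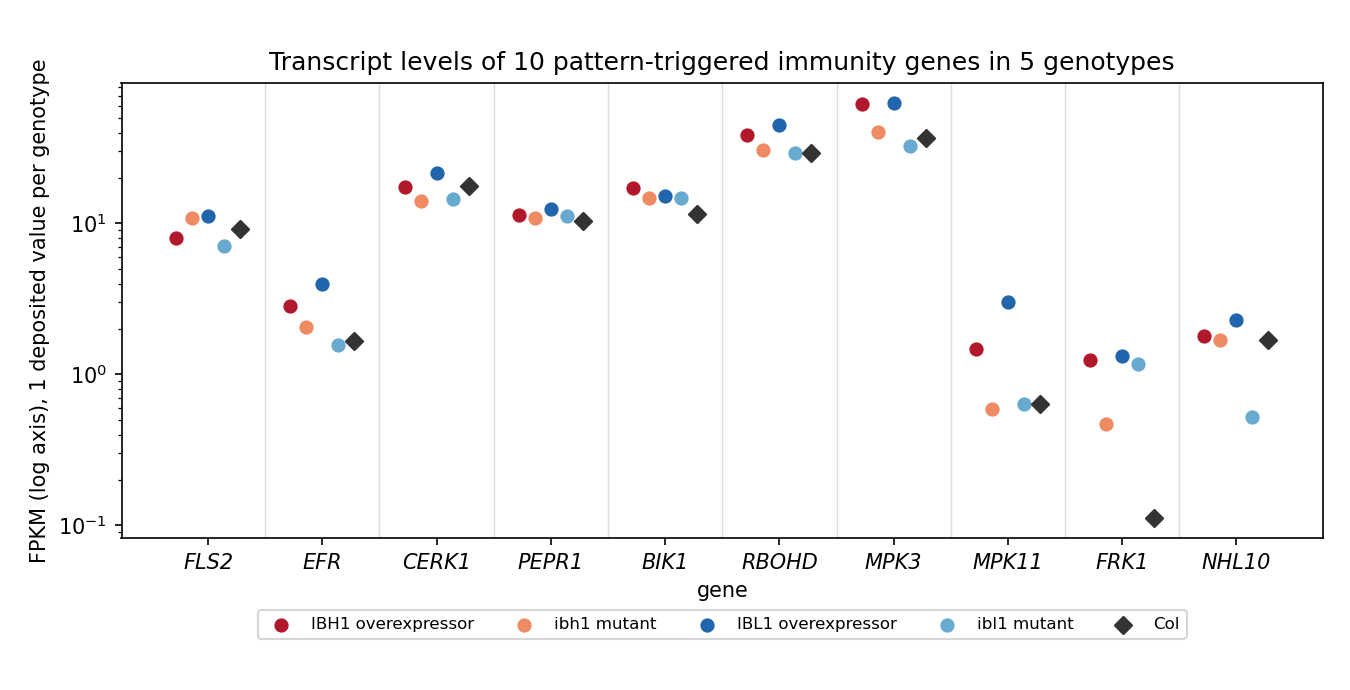
FPKM of the 10 genes (y axis, log scale) in the 4 lines (circles) and in Col (diamonds), 1 deposited value per genotype and no error bar. FRK1 lay at 0.113 FPKM in Col and between 0.469 and 1.33 FPKM in the lines, while PEPR1 lay between 10.4 and 12.6 FPKM throughout.

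BIK1 (AT2G39660, chromosome 2, 16531688 to 16533931), the kinase that the receptor complexes phosphorylate and that activates RBOHD, was at 17.1 FPKM in the IBH1 overexpressor, 14.7 FPKM in the ibh1 mutant, 15.2 FPKM in the IBL1 overexpressor and 14.8 FPKM in the ibl1 mutant, against 11.6 FPKM in Col. Every line lay above Col, which is 1 shared value, and none was called. The largest change, in the IBH1 overexpressor, was 0.56 ± 0.21 (p 0.00746 and q 0.0774 in the authors' test).

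RBOHD (AT5G47910, chromosome 5, 19397443 to 19402061), the NADPH oxidase of the oxidative burst, rose in both overexpressors. It was at 38.5 FPKM in the IBH1 overexpressor, 30.7 FPKM in the ibh1 mutant, 44.7 FPKM in the IBL1 overexpressor and 29.2 FPKM in the ibl1 mutant, against 29.5 FPKM in Col. The rise was 1.31-fold in the IBH1 overexpressor (log2 0.39 ± 0.11, authors' q 0.00874) and 1.51-fold in the IBL1 overexpressor (0.60 ± 0.10, authors' q 1.05e-07). The mutants were at 0.06 ± 0.12 and -0.02 ± 0.11, with 95% intervals that stayed between -0.23 and 0.29.

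MPK3 (AT3G45640, chromosome 3, 16756770 to 16758698), a MAP kinase that perceived patterns activate within minutes, had the highest level of the 10 genes in every genotype and was called in the same lines as RBOHD. It was at 61.4 FPKM in the IBH1 overexpressor, 40.3 FPKM in the ibh1 mutant, 62.3 FPKM in the IBL1 overexpressor and 32.4 FPKM in the ibl1 mutant, against 37.0 FPKM in Col. It rose 1.66-fold in the IBH1 overexpressor (log2 0.73 ± 0.13, authors' q 2.18e-06) and 1.69-fold in the IBL1 overexpressor (0.75 ± 0.13, authors' q 1.04e-07). The ibh1 mutant had 0.13 ± 0.15 and the ibl1 mutant -0.19 ± 0.15 (authors' q 0.749 and 0.546).

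MPK11 (AT1G01560, chromosome 1, 202136 to 204335), a close relative of MPK4 that flagellin also activates, was weakly expressed. It was at 1.47 FPKM in the IBH1 overexpressor, 0.587 FPKM in the ibh1 mutant, 3.04 FPKM in the IBL1 overexpressor and 0.637 FPKM in the ibl1 mutant, against 0.641 FPKM in Col. It rose 4.74-fold in the IBL1 overexpressor (log2 2.24 ± 0.78, authors' q 0.0344), where the median of expressed genes was itself shifted by 0.12, and the call was lost once that shift was subtracted (adjusted p 0.0551). The IBH1 overexpressor had 1.20 ± 0.90 (authors' q 0.479), and the authors' test did not accept MPK11 in the mutants. Reads that MPK11 could share with MPK4 leave so low a level uncertain; MPK4 was at 45.4 FPKM in the IBL1 overexpressor and 33.7 FPKM in Col.

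FRK1 (AT2G19190, chromosome 2, 8326049 to 8329944), a receptor-like kinase gene that serves as the standard transcript marker of flagellin perception, had the largest fold changes and, in Col, the lowest level of the 10. It was at 1.24 FPKM in the IBH1 overexpressor, 0.469 FPKM in the ibh1 mutant, 1.33 FPKM in the IBL1 overexpressor and 1.18 FPKM in the ibl1 mutant, against 0.113 FPKM in Col. It rose in 3 lines: log2 3.46 ± 1.03 for the IBH1 overexpressor, 3.55 ± 1.02 for the IBL1 overexpressor and 3.38 ± 1.03 for the ibl1 mutant (authors' q 0.0149, 0.00596 and 0.0244). In the ibh1 mutant the log2 change was 2.05 ± 1.10, which the authors' test did not accept. All 4 changes rest on the same low Col value. With 1 FPKM added to both groups they came to 1.01 for overexpressed IBH1, 0.40 for mutant ibh1, 1.06 for overexpressed IBL1 and 0.97 for mutant ibl1.

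NHL10 (AT2G35980, chromosome 2, 15110588 to 15111471), a gene that flagellin and other elicitors induce, was the other output gene. It was at 1.79 FPKM in the IBH1 overexpressor, 1.70 FPKM in the ibh1 mutant, 2.31 FPKM in the IBL1 overexpressor and 0.520 FPKM in the ibl1 mutant, against 1.70 FPKM in Col. It was called in no line (authors' q between 0.478 and 1.00). Its lowest level was in the ibl1 mutant (log2 -1.71 ± 1.17), a line in which FRK1 rose, and the intervals of NHL10 are wide: from -1.06 to 1.94 in the IBL1 overexpressor and from -4.01 to 0.59 in the ibl1 mutant.

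Counted by comparison, 3 of the 10 genes were called in the IBH1 overexpressor (FRK1, MPK3 and RBOHD, all higher), where 8.02% of 20694 tested genes were called and 3.82% were called higher. In the ibh1 mutant 0 of the 8 tested members were called by Cuffdiff, and 0 had an unadjusted p under 0.05, against 3.37% of 20967 tested genes called and 1.34% called higher. In the IBL1 overexpressor 5 of the 10 were called, all higher (FRK1, MPK11, EFR, MPK3 and RBOHD), against 13.9% of 21480 called and 10.3% called higher. In the ibl1 mutant 1 of 9 was called (FRK1, higher), against 5.45% of 20732 called and 1.05% called higher. The median log2 change of the tested members was 0.47 for the IBH1 overexpressor (0.01 over all genes tested), 0.10 for the ibh1 mutant (0.02 over all), 0.52 for the IBL1 overexpressor (0.13 over all) and -0.09 for the ibl1 mutant (-0.07 over all). These medians cover different genes, since FRK1 and MPK11 were not accepted in the ibh1 mutant, nor MPK11 in the ibl1 mutant. Over tested members at 1 FPKM or more in line and Col, the IBH1 overexpressor had 0.26 and the ibh1 mutant 0.10 (8 members each). By that rule the IBL1 overexpressor had 0.42 (8 members) and the ibl1 mutant -0.09 (7 members). No member was called lower in any line. Beside these counts of 3, 0, 5 and 1 members, the summed root markers were 75.2 FPKM for the IBH1 overexpressor, 111 FPKM for the ibh1 mutant, 118 FPKM for the IBL1 overexpressor and 84.0 FPKM for the ibl1 mutant, against 83.3 FPKM in Col. CASP1 was the largest part of each sum, at 32.1, 63.9, 67.7 and 41.5 FPKM in the lines in that order, against 40.3 FPKM in Col. Of the 5 root markers, CASP1 and WER were called higher in the IBL1 overexpressor (0.75 ± 0.16 and 1.86 ± 0.68) and CASP1 in the ibh1 mutant (0.67 ± 0.17). COBL9, EXPA7 and SCR were called in no line, and SCR lay below Col in all 4 (17.8 to 19.7 FPKM, against 21.2 FPKM). The part of tissue composition in the members' changes was not tested. The 4 comparisons share their Col libraries.

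Stricter call rules lowered some of these counts. A change of at least 2-fold was met by FRK1 alone in the IBH1 overexpressor (0.937% of tested genes were called higher by that rule) and by FRK1, MPK11 and EFR in the IBL1 overexpressor (2.05% of tested genes). Where line and Col both had to reach 1 FPKM, EFR, MPK3 and RBOHD were called in the IBL1 overexpressor (11.3% called higher) and 0 in the ibl1 mutant (1.1%). In the IBH1 overexpressor that rule left MPK3 and RBOHD and dropped FRK1 (4.08% called higher). After centring on the median change, 4 members were called in the IBL1 overexpressor, where the share called higher dropped to 5.64%. At a q below 0.01 the call of FRK1 in the ibl1 mutant was lost (0.506% called higher). That threshold also ended the calls of FRK1 in the IBH1 overexpressor (2.23% called higher) and MPK11 in the IBL1 overexpressor (6.36%).

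**Figure D3:**
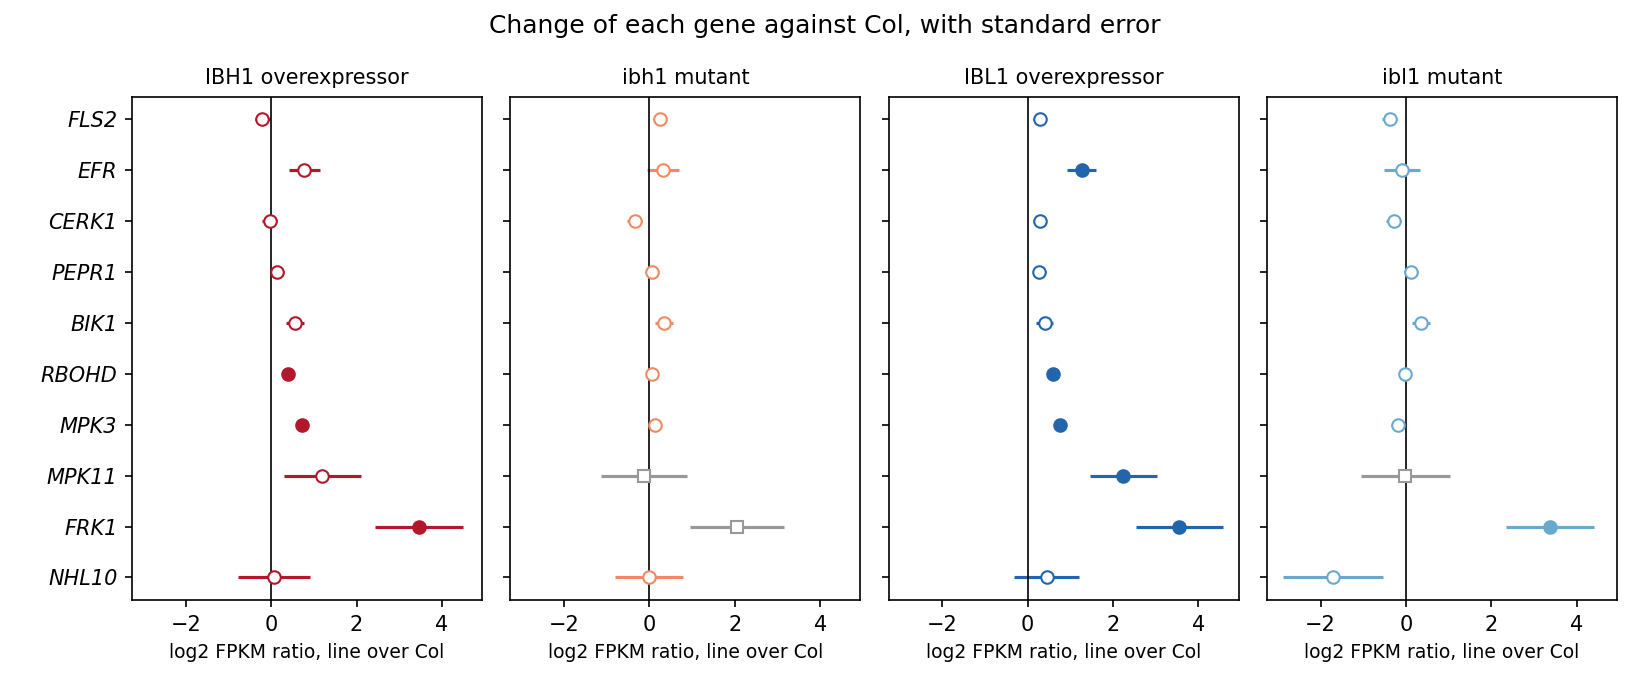
Log2 FPKM ratio of each line over Col (x axis) with its standard error, 1 panel per line. Filled points were called (authors' q below 0.05), open points were not, and grey squares were not accepted by the authors' test; RBOHD, MPK3 and FRK1 are filled in both overexpressor panels.

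Lines were also compared with each other, by a two-sided normal test of the difference between their log2 changes over all genes accepted in both tables, adjusted by Benjamini and Hochberg. Adding both squared errors counts the error of Col in both and makes this test cautious. Between the IBL1 overexpressor and the ibl1 mutant 2 of 9 members differed, against 5.16% of 20088 genes called. MPK3, at 62.3 FPKM in the overexpressor and 32.4 FPKM in the mutant, differed by 0.94 ± 0.19 (adjusted p 9.89e-05), and RBOHD, at 44.7 and 29.2 FPKM in the same order, by 0.61 ± 0.15 (adjusted p 0.00205). RBOHD lost its call when each table was first centred on its median (3.33% called). With the error of Col left out 5 members differed, adding FLS2, EFR and CERK1 (16.6% called). FRK1 did not differ detectably between them: the difference was 0.17, with a 95% interval of -2.66 to 3.01.

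Between the IBH1 overexpressor and the ibh1 mutant 0 of 8 members were called by this test, against 2.91% of 19898 genes, although 2 had an unadjusted p under 0.05. MPK3, at 61.4 FPKM in the overexpressor and 40.3 FPKM in the mutant, came closest, at 0.61 ± 0.20 (adjusted p 0.0659). With the error of Col left out MPK3 and RBOHD passed (adjusted p 0.00043 and 0.0448), in a setting that called 9.41% of genes.

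Between the IBH1 overexpressor and the IBL1 overexpressor 0 of 10 members were called by this test (1 at an unadjusted p under 0.05), against 5.48% of 20005 genes. For MPK3 the difference was -0.02, with a 95% interval of -0.38 to 0.34. For EFR, called in the IBL1 overexpressor and not in the IBH1 overexpressor, the difference was -0.49 ± 0.50 (adjusted p 0.783), so a difference in EFR between the 2 lines was not shown. FLS2, at 7.99 FPKM in the IBH1 overexpressor and 11.2 FPKM in the IBL1 overexpressor, had -0.49 ± 0.24 (adjusted p 0.312).

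Between the ibh1 mutant and the ibl1 mutant 0 of 8 members were called by this test (1 at an unadjusted p under 0.05), against 0.466% of 19969 genes. The member with the smallest p was FLS2, at 10.9 FPKM in the ibh1 mutant and 7.08 FPKM in the ibl1 mutant (0.63 ± 0.25, adjusted p 0.631). With the error of Col left out FLS2 passed in this pair (adjusted p 0.0182, with 2.51% of genes called) and between the overexpressors (adjusted p 0.0297, with 15.8% called).

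**Figure D4:**
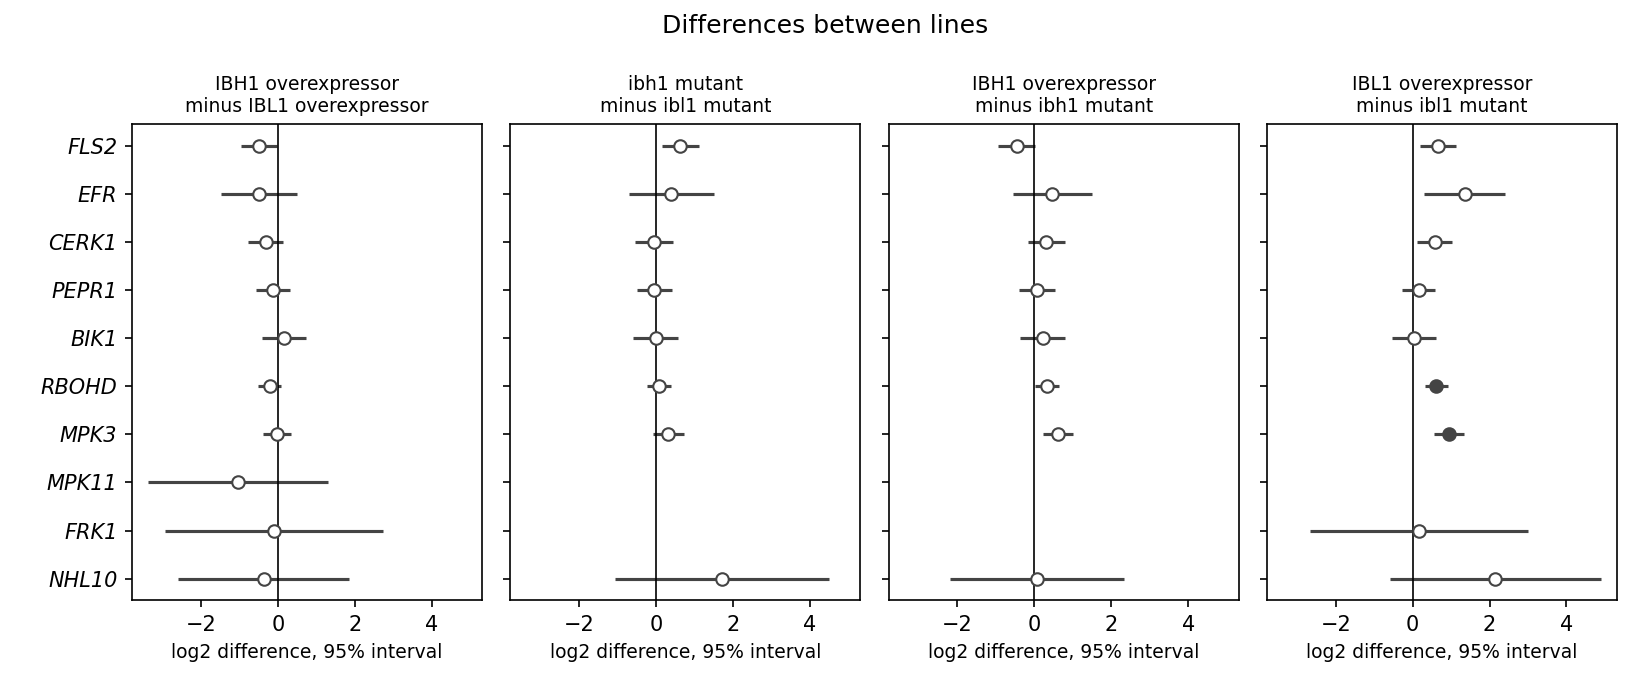
Difference between 2 lines in log2 level (x axis) with its 95% interval for each member that both tables accept, 1 panel per pair of lines. Filled points were called after adjustment over all genes: MPK3 and RBOHD between the IBL1 overexpressor and the ibl1 mutant; the intervals of MPK11, FRK1 and NHL10 are several times wider than those of the abundant genes.

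In level, 7 of the 10 genes had the IBL1 overexpressor first and the IBH1 overexpressor second. The exceptions were FLS2, whose second place was the ibh1 mutant's, CERK1, whose second place was Col's, and BIK1, which was highest in the IBH1 overexpressor. Over the 18656 genes at 1 FPKM or more in every genotype, that order held for 10.4%, and the IBL1 overexpressor came first for 38%. Of the 7, FRK1, MPK11 and NHL10 fell below 1 FPKM in at least 1 genotype and so lie outside that set. By the tests above with both squared errors added, no difference between the overexpressors, first and second in most of these orders, was called. With the error of Col left out that of FLS2 was called (15.8% of genes called). RBOHD and MPK3 had the most similar changes of all pairs of members, with a Euclidean distance of 0.42 over the 4 log2 changes. The 5 genes nearest to FRK1 by that distance, among 18531 genes at 1 FPKM or more in all genotypes and accepted in all 4 tables, were AT1G24145, AT1G19394, AT1G31900 and AT2G01023, for which the annotation has no symbol, and LURP1 (AT2G14560), a gene induced late by an oomycete pathogen. LURP1, at a distance of 2.05, was at 62.2 FPKM in the IBH1 overexpressor, 12.7 FPKM in the ibh1 mutant, 87.7 FPKM in the IBL1 overexpressor and 53.5 FPKM in the ibl1 mutant, against 9.54 FPKM in Col. It was called in the same 3 lines as FRK1, with standard errors between 0.27 and 0.28 there. AT1G24145 was nearest (distance 1.20), called in the IBL1 overexpressor (authors' q 0.00176), and the other 3 were called in no line.

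The wider pathway was followed in 57 further genes. In the IBH1 overexpressor 9 of 57 were called higher and 1 lower, beside 3.82% and 4.19% of all genes tested, with a median log2 change of 0.13 beside 0.01 for all. Among called genes at 1 FPKM or more in line and Col, the largest rises were those of 3 outputs: MYB51, a regulator of indole glucosinolates (13.1 against 4.86 FPKM, 1.43 ± 0.30), WRKY53, an early WRKY factor (11.1 against 4.76 FPKM, 1.22 ± 0.35), and CBP60G, a regulator of salicylate synthesis (6.70 against 3.42 FPKM, 0.97 ± 0.33). SOBIR1, the adaptor kinase of receptor-like proteins, rose in this line as well (43.9 against 22.8 FPKM, 0.95 ± 0.14). PRX33, a cell-wall peroxidase of the oxidative burst, was the gene that fell (30.4 against 62.7 FPKM, -1.05 ± 0.15, authors' q 3.02e-10). None of 9 further MAP kinase cascade genes and none of 9 further cytoplasmic kinases was called by Cuffdiff in this line (1 and 3 had an unadjusted p under 0.05).

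In the IBL1 overexpressor 27 of 57 were called higher and 0 lower, beside 10.3% and 3.58% of all genes tested, with a median of 0.57 beside 0.13 for all. After centring 22 were called higher, beside 5.64% of all. Among called genes at 1 FPKM or more in line and Col, PHI-1 had the largest rise (33.9 against 7.13 FPKM, 2.25 ± 0.28), followed by the receptor-like kinase IOS1 (17.4 against 4.73 FPKM, 1.88 ± 0.21), WRKY53 (14.7 against 4.76 FPKM, 1.63 ± 0.32) and MYB51 (13.5 against 4.86 FPKM, 1.47 ± 0.28). By role, 7 of 14 receptors and co-receptors rose, 4 of 9 cytoplasmic kinases, 4 of 9 MAP kinase cascade genes, all 3 oxidative burst genes, 1 of 5 ubiquitin ligases, 1 of 2 receptor maturation genes and 7 of 15 early outputs. Centring ended the calls of BAK1, CPK5, MPK4, PRX33 and ERF6. RLP23, a receptor of a microbial peptide, lay under that limit in Col and is named after its values were seen. It had the largest rise of the called pathway genes in both overexpressors: 2.57 FPKM with IBH1 overexpressed (2.19 ± 0.58) and 4.63 FPKM with IBL1 overexpressed (3.04 ± 0.55), against 0.562 FPKM in Col.

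In the mutants 1 gene each was called, with 8 and 9 at an unadjusted p under 0.05 in the ibh1 and ibl1 mutants. In the ibh1 mutant 1 of 56 tested genes was called, the calcium-dependent kinase CPK6 (16.2 against 10.6 FPKM, 0.62 ± 0.19, authors' q 0.0315), beside 3.37% of all genes tested. In the ibl1 mutant 1 of 57 was called, PRX33 (46.0 against 62.7 FPKM, -0.44 ± 0.13, authors' q 0.0155), beside 5.45% of all genes tested, but after centring PRX33 lost its call (adjusted p 0.0701) and CPK6 was called higher (15.4 against 10.6 FPKM, adjusted p 0.0291). PRX33 and PRX34 are near-identical neighbours, so reads could be split between them.

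The co-receptor BAK1, shared with brassinosteroid perception, was at 28.7 FPKM in the IBH1 overexpressor, 26.5 FPKM in the ibh1 mutant, 35.5 FPKM in the IBL1 overexpressor and 25.1 FPKM in the ibl1 mutant, against 27.4 FPKM in Col. It was called in the IBL1 overexpressor (0.37 ± 0.11, authors' q 0.012), a call lost on centring (adjusted p 0.134). MPK6, the partner of MPK3, was called in no line (0.23 ± 0.13 in the IBL1 overexpressor, -0.01 ± 0.15 in the IBH1 overexpressor), nor was WRKY29, an output reported downstream of flagellin (-0.46 ± 0.44 and -0.38 ± 0.46 in the same order).

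**Figure D5:**
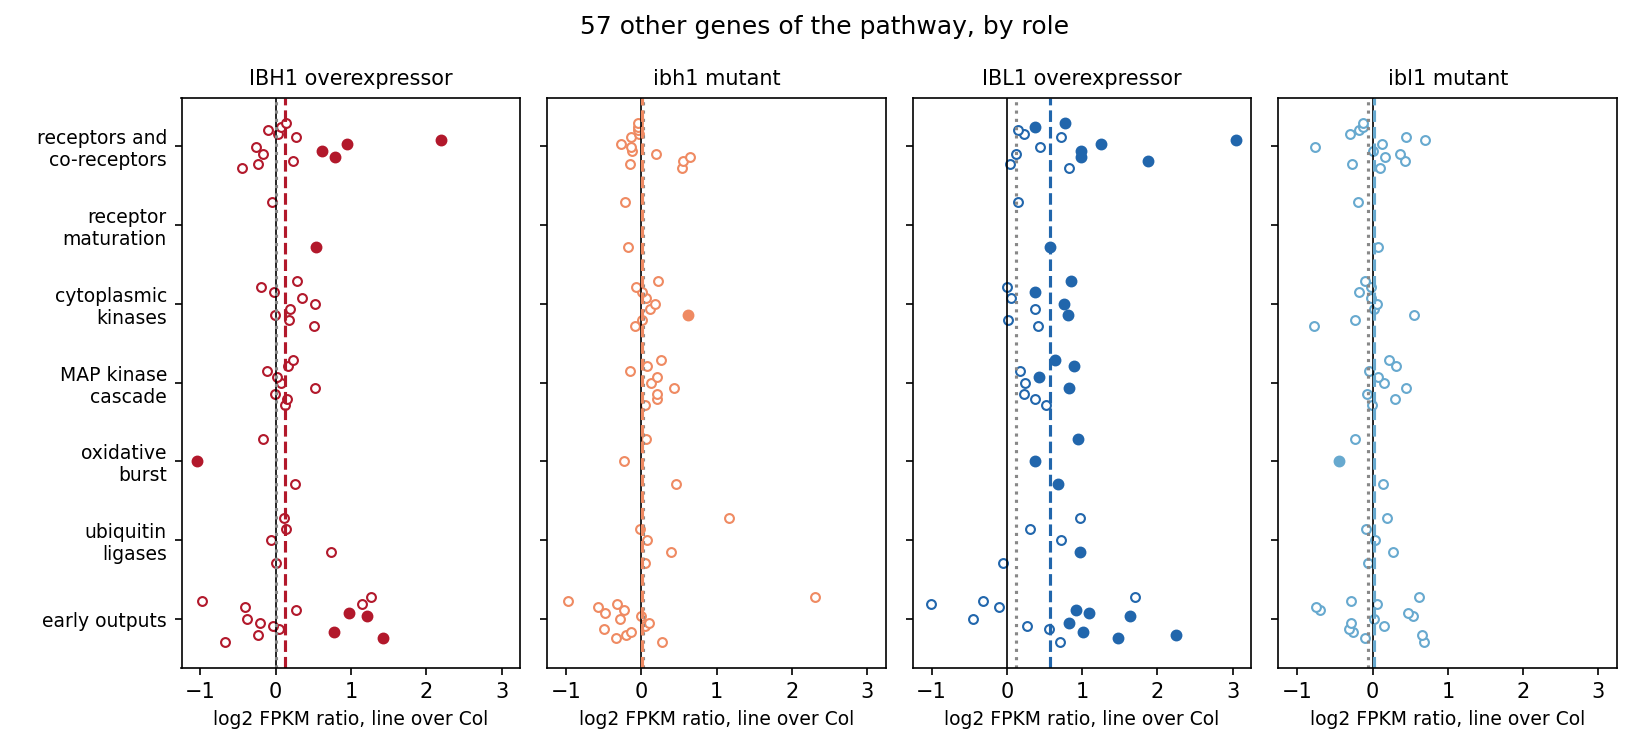
Log2 FPKM ratio of each line over Col (x axis) for the tested genes among 57 further pathway genes with a value, by role (y axis). Filled points were called; the coloured dashed line is the median of the list and the grey dotted line that of all genes tested, 0.57 and 0.13 in the IBL1 overexpressor.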

How the data were processed

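RNA of 5 genotypes, 10 numbered libraries, had been selected for poly(A), per the labels. Per the submitters' processing notes, CASAVA 1.8.2, TopHat 1.4.1, Cuffdiff and TAIR10 were used; the release, scaling, gene models and strand setting of Cuffdiff were not given in the sources used here. Each of the 4 tables that the authors deposited holds 1 FPKM value per group, a log2 fold change, a statistic, a p-value and a q-value, per the file headers. Deposited log2 fold changes run Col over line, so their sign was turned; the table names, not the headers, name the line, and call IBL1 by its other name bHLH159. The standard error is the fold change divided by the statistic, since the deposited p-value equals its two-sided normal p within 2.81e-06 and the q-value a Benjamini-Hochberg adjustment over accepted genes within 2.39e-06.

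Depth is unknown, so no interval that needs it is given; 95% intervals are normal. Line differences were tested with scipy 1.17.1 in Python 3.11.15, tested on simulated data first, with genes at 0 left out. Centring subtracts the median log2 change of genes that reach 1 FPKM in line and Col (0.01 for both IBH1 lines, 0.12 for the IBL1 overexpressor, -0.07 for the ibl1 mutant). Leaving out the error of Col assumes that it makes up 0.5 of each squared error. The members, lists and tests were chosen with earlier results of these data known. Named are all members, up to 4 called pathway genes per direction and line with the largest change at 1 FPKM or more in both groups, BAK1, MPK6, WRKY29, and the 5 genes nearest to FRK1. Of 60 listed pathway genes, 3 were left out because the annotation does not list their names. Gene coordinates are the files', counted from 1; the windows before gene starts use RefSeq starts on TAIR10.1, which differ from the files' starts for all members but FRK1.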

Additional observations from a re-analysis of the deposited data

Results flagged for a closer look

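With both squared errors added, no member differed between the overexpressors or between the mutants after adjustment. With the error of Col left out FLS2 passed in both pairs, in a setting that called 15.8% and 2.51% of genes. Of the 57 further pathway genes, 7 differed between the IBH1 overexpressor and the IBL1 overexpressor, all lower in the IBH1 overexpressor. These 7 were called by the normal test of the difference with both squared errors added (5.48% of 20005 genes called, 4.08% called lower). The largest gap was in PHI-1, at 6.05 FPKM in the IBH1 overexpressor and 33.9 FPKM in the IBL1 overexpressor (log2 difference -2.49 ± 0.48, adjusted p 1.6e-05). The receptor-like kinase IOS1 was at 5.54 and 17.4 FPKM in the same order (-1.65 ± 0.34, adjusted p 6.21e-05). The peroxidases of the oxidative burst went furthest apart relative to their error: PRX33 was at 30.4 FPKM in the IBH1 overexpressor and 81.2 FPKM in the IBL1 overexpressor (-1.42 ± 0.19, adjusted p 5.83e-12), below and above the 62.7 FPKM of Col, and PRX34 was at 189 and 410 FPKM in the same order (-1.12 ± 0.11, adjusted p 4.08e-21). Smaller differences were found in the kinases CPK6 (-0.81 ± 0.27, adjusted p 0.0498) and CPK28 (-0.57 ± 0.18, adjusted p 0.0387) and in the receptor-like kinase BIR1 (-0.63 ± 0.18, adjusted p 0.0143). After each table was centred on its median, CPK6, CPK28 and BIR1 were no longer called (adjusted p 0.131, 0.159 and 0.0728). That left 4 of the 57, beside 2.55% of all genes called lower. The summed root markers were 75.2 FPKM in the IBH1 overexpressor and 118 FPKM in the IBL1 overexpressor. CASP1 alone was at 32.1 and 67.7 FPKM in the same order. The part of root tissue in these differences was not tested.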

How the results depend on the processing

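No paired analysis was possible because the files hold 1 value per group, and for the same reason no library could be left out. Requiring a change of at least 2-fold left 1 of 3 calls in the IBH1 overexpressor (0.937% of tested genes called higher) and 3 of 5 in the IBL1 overexpressor (2.05%). Restricting the test to genes that reach 1 FPKM in line and Col left 2 calls for the IBH1 overexpressor, 3 for the IBL1 overexpressor and 0 for the ibl1 mutant. The shares of genes called higher by that rule were 4.08%, 11.3% and 1.1% in the same order. FRK1 and MPK11 were below that level in Col. A q threshold of 0.01 left 0 in the ibl1 mutant (0.506% of tested genes called higher). With the error of Col left out, 1 member differed between the overexpressors (15.8% of genes called) and 1 between the mutants (2.51%). In that setting 2 differed between the IBH1 overexpressor and the ibh1 mutant (9.41%) and 5 between the IBL1 overexpressor and the ibl1 mutant (16.6%). Centring with both squared errors added left 1 in the last pair (3.33%). The other counts of called members stayed within 1.5 times. A pseudocount of 0.1 FPKM moved 0 of 40 fold changes by more than their standard error and one of 1 FPKM moved 6, of FRK1, EFR and MPK11; none changed sign. Centring ended the call of MPK11 in the IBL1 overexpressor and changed no other call of a member against Col. Depth is unknown, and the wide errors of FRK1, MPK11 and NHL10 go with levels near or below 1 FPKM.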

Other observations

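Families of the members were read from the annotation's symbols after the results were known, and the counts below include the members themselves. Of 19 MPK genes, 3 of 17 tested rose in the IBL1 overexpressor (MPK11, MPK3 and MPK4) and 1 of 16 in the IBH1 overexpressor (MPK3), with none called in the mutants by Cuffdiff. Apart from the members MPK3 and MPK11, MPK4 was the only MPK gene called, in the IBL1 overexpressor. Over all genes tested 10.3% were called higher in the IBL1 overexpressor and 3.82% in the IBH1 overexpressor, so 1 of 16 is near that share. Of the 3 calls in the IBL1 overexpressor, those of MPK11 and MPK4 were lost on centring. The RBOH and NHL counts below stand against the same shares. MPK4, a negative regulator of immunity in the classical view, had 0.43 ± 0.14 in the IBL1 overexpressor (authors' q 0.0176), a call lost on centring (adjusted p 0.126). Of 7 RBOH oxidase genes 5 were tested in each line; RBOHD was called in both overexpressors and RBOHF in the IBL1 overexpressor (7.94 against 4.98 FPKM, 0.67 ± 0.19). RBOHC, the root hair oxidase, was at 3.82 FPKM in the IBH1 overexpressor, 6.27 FPKM in the ibh1 mutant, 4.52 FPKM in the IBL1 overexpressor and 3.00 FPKM in the ibl1 mutant, against 3.69 FPKM in Col, and was not called.

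Of 9 NHL genes, NHL10 among them, NHL3 was the one called, in both overexpressors. That is 1 of 7 tested in the IBH1 overexpressor, where 3.82% of all genes were called higher. In the IBL1 overexpressor it is 1 of 8, near the 10.3% called higher over all genes. NHL3, whose product is a plasma membrane protein linked to resistance to Pseudomonas, was at 72.6 FPKM in the IBH1 overexpressor, 49.1 FPKM in the ibh1 mutant, 90.1 FPKM in the IBL1 overexpressor and 55.3 FPKM in the ibl1 mutant, against 51.2 FPKM in Col. The log2 change was 0.50 ± 0.15 in the IBH1 overexpressor and 0.81 ± 0.13 in the IBL1 overexpressor (authors' q 0.0134 and 8.28e-08), while the mutants were at -0.06 ± 0.16 and 0.11 ± 0.15. NHL10 itself, with a standard error of 0.77 in the IBL1 overexpressor, was called in neither.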
